A study of Mus musculus with 2 samples.

Results

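Mature goblet nuclei of the mouse colon were selected by their goblet transcripts in both libraries of a single-nucleus RNA sequencing experiment. A nucleus was counted as a mature Clca1 goblet nucleus if it held at least 4 of the 8 markers Clca1, Fer1l6, Sytl5, Fcgbp, Spink1, Zg16, Tff3 and Bcas1, and if these markers together made up at least 0.4% of its unique molecular identifiers (UMIs, each standing for 1 captured transcript). Nuclei were thus selected on transcripts, and the rule found 974 of 9586 nuclei, 335 from the WT and 639 from the HIF-1α KO library. Muc2 was kept out of the rule since its UMIs also occurred in many nuclei of other classes.

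Goblet cells are secretory cells of the intestinal epithelium that make, store and release the mucus lining the gut. In the colon they arise in the crypt under the transcription factor ATOH1, fill with mucin granules and move towards the surface, where they empty their granules and are shed. MUC2 forms the net of this mucus, CLCA1 is a protease that processes it, and FCGBP and ZG16 are released together with it.

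The WT library was made from WT littermates, and the HIF-1α KO library from Ncr1cre+ Hif-1α fl+/fl+ mice, in which Cre from the Ncr1 promoter deletes Hif1a in NKp46+ cells. Mice were 8 to 12 weeks old and all had chronic colitis from 4 cycles of 3 d of 2% dextran sodium sulfate (DSS) in the drinking water and 4 d of recovery, with colon taken at day 28. Each library was 1 pool of 3 animals, so that no spread between animals can be given, and all intervals below are 95% intervals that cover counting error only. The deletion is aimed at NKp46+ innate lymphocytes and not at goblet cells. Levels are given in CPM, the UMIs of a gene per 1000000 UMIs of the nuclei summed. Hif1a itself stood at 128 CPM in WT and at 158 in the HIF-1α KO mature Clca1 goblet nuclei, a log2 ratio of 0.30.

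The libraries differed in depth, with 13492810 and 25489277 UMIs in the 4896 WT and 4772 HIF-1α KO barcodes. Nuclei of the rule held a median of 2779 UMIs and 1535 genes in the WT, and 4555 UMIs and 2191 genes in the HIF-1α KO library. Other nuclei had medians of 2016 and 4150 UMIs. The libraries shared 3 barcodes, none of them in a mature Clca1 goblet nucleus. Doublets were not called, and 25 WT and 92 HIF-1α KO mature Clca1 goblet nuclei also met the marker rule of another cell class, mostly that of absorptive colonocytes, with 17 and 64 nuclei. The transcripts Gm42418 and AY036118, which overlap ribosomal RNA repeats, stood at 53048 and 9191 CPM in WT nuclei of the rule, against 23797 and 3635 CPM in HIF-1α KO ones.

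The share of UMIs in the 8 markers chose the nuclei and is given as a description. It ran from 0.406% to 18.7% with a median of 1.39% in WT nuclei, and from 0.4002% to 18.0% with a median of 1.07% in HIF-1α KO nuclei. Nuclei outside the rule had medians of 0.0888% and 0.123%. The threshold did not lie in a gap. The lowest shares inside were 0.406% and 0.4002%, and the highest shares outside, among nuclei with at least 4 markers, were 0.398% and 0.3997%. Shares under 0.5% occurred in 43 WT and 110 HIF-1α KO nuclei of the rule. At the other end, 113 WT nuclei (33.7%) and 144 HIF-1α KO nuclei (22.5%) held at least 2% of their UMIs in the markers, and 49 and 129 nuclei held all 8 of them. The histograms of the marker share show a broad mode of nuclei below the threshold and a long shoulder above it in both libraries.

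**Figure D1:**
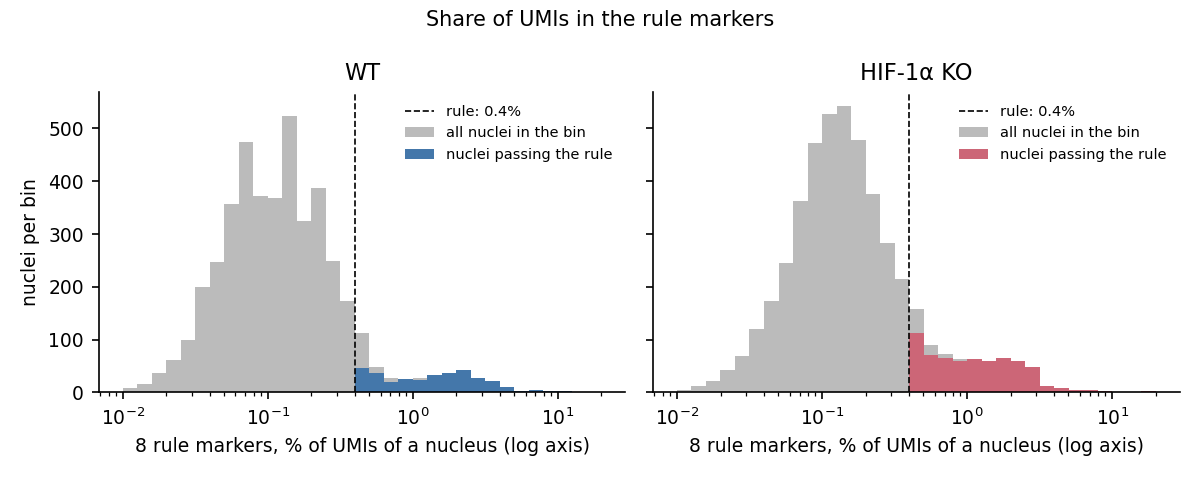
Nuclei per bin of the share of UMIs in the 8 rule markers (x axis, percent, log scale) in the WT (left) and HIF-1α KO (right) library; grey bars are all nuclei, coloured bars the nuclei that pass the rule, and the dashed line marks 0.4%. Nuclei without a marker UMI are not drawn. The coloured bars hold 335 WT and 639 HIF-1α KO nuclei. Grey bars above the line also hold nuclei that reach the share but have too few markers to pass the rule.

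Mature Clca1 goblet nuclei made up a larger share of the HIF-1α KO library. They were 6.86% of 4884 WT nuclei (exact binomial interval 6.17% to 7.60%) and 13.6% of 4702 HIF-1α KO nuclei (12.6% to 14.6%). By their own marker rules, 514 WT and 911 HIF-1α KO nuclei were absorptive and 86 and 178 immune. Mesenchymal (307 and 151), cycling (160 and 133), enteroendocrine (136 and 125) and endothelial nuclei (36 and 17) were fewer in the HIF-1α KO library. Neural nuclei numbered 18 and 20, stem nuclei 6 and 9 and tuft nuclei 1 and 0. The log2 ratio of the shares was 0.99 with a counting interval of 0.79 to 1.18. With all nuclei thinned to 1000 UMIs, which left out 63 HIF-1α KO nuclei and no WT nucleus, the shares were 6.02% and 11.1%, a log2 ratio of 0.88 (0.67 to 1.09). Nuclei of other classes also met the rule more often in the HIF-1α KO library. Among nuclei that met a mesenchymal marker rule, 2 of 307 WT nuclei (0.651%) and 8 of 151 HIF-1α KO nuclei (5.30%) passed it, and among immune nuclei 4.65% and 8.43% did. Mesenchymal nuclei, which do not make mucus, held a median of 0.0814% and 0.147% of their UMIs in the 8 markers. The part of this background in the shares was not tested beyond raising the threshold by these medians, which left 6.06% and 10.8% and a log2 ratio of 0.83. With 1 pool per genotype, genotype, pool and library cannot be told apart.

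Of the 8 markers, Zg16, Fcgbp, Spink1, Clca1, Fer1l6 and Bcas1 were each detected in at least 79.1% of the nuclei of the rule in both libraries, whereas Tff3 was found in 39.4% and 52.7% and Sytl5 in 34.6% and 32.6% of WT and HIF-1α KO nuclei. Clca1 (chromosome 3, bases 145003817 to 145032776 on GRCm38) stood at 3685 CPM in WT and at 3376 in the HIF-1α KO mature Clca1 goblet nuclei. In mesenchymal nuclei it stood at 78.4 and 152 CPM. At least 1 Clca1 UMI was found in 86.6% and 91.2% of the nuclei of the rule. In mesenchymal nuclei, with medians of 2281 and 3655 UMIs, 18.7% and 46.2% held one, so that the presence of a single UMI did not mark a goblet nucleus. After thinning to 1000 UMIs these shares were 74.3% and 69.3% against 10.2% and 18.9%. Fcgbp stood at 5744 and 5302 CPM in the nuclei of the rule, against 145 and 322 in mesenchymal nuclei. Zg16 (chromosome 7, bases 127050156 to 127087328), a lectin that binds bacteria, also had a background, with 330 and 463 CPM in mesenchymal nuclei against 6074 and 2919 in the nuclei of the rule.

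Fer1l6, a member of the ferlin family of calcium-dependent membrane proteins, stood at 1399 CPM (WT) and 1780 CPM (HIF-1α KO), and at 32.8 and 39.9 in mesenchymal nuclei. Sytl5, a synaptotagmin-like protein that binds Rab27, stood at 205 and 151 against 4.68 and 1.60. Bcas1 stood at 1254 and 1476, Spink1, a trypsin inhibitor, at 3289 and 2113, and the trefoil peptide Tff3 at 291 and 387. Of all marker UMIs in these nuclei, Zg16 gave 27.7% in WT nuclei and 16.7% in HIF-1α KO nuclei, and Fcgbp gave 26.2% and 30.3%.

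Muc2 (chromosome 7, bases 141690340 to 141754693), which had no part in the choice, followed the markers. Its level was 4821 CPM in WT and 4128 in the HIF-1α KO mature Clca1 goblet nuclei. All other nuclei held 703 and 774 CPM, and mesenchymal nuclei 387 and 573. The log2 difference from the other nuclei was 2.78 in WT and 2.42 in HIF-1α KO nuclei. At least 1 Muc2 UMI was found in 95.8% and 98.1% of the nuclei of the rule, but also in 59.7% and 87.4% of mesenchymal nuclei. In the plot of goblet gene levels, Muc2 separates the nuclei of the rule from mesenchymal nuclei and by less from other goblet nuclei.

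**Figure D2:**
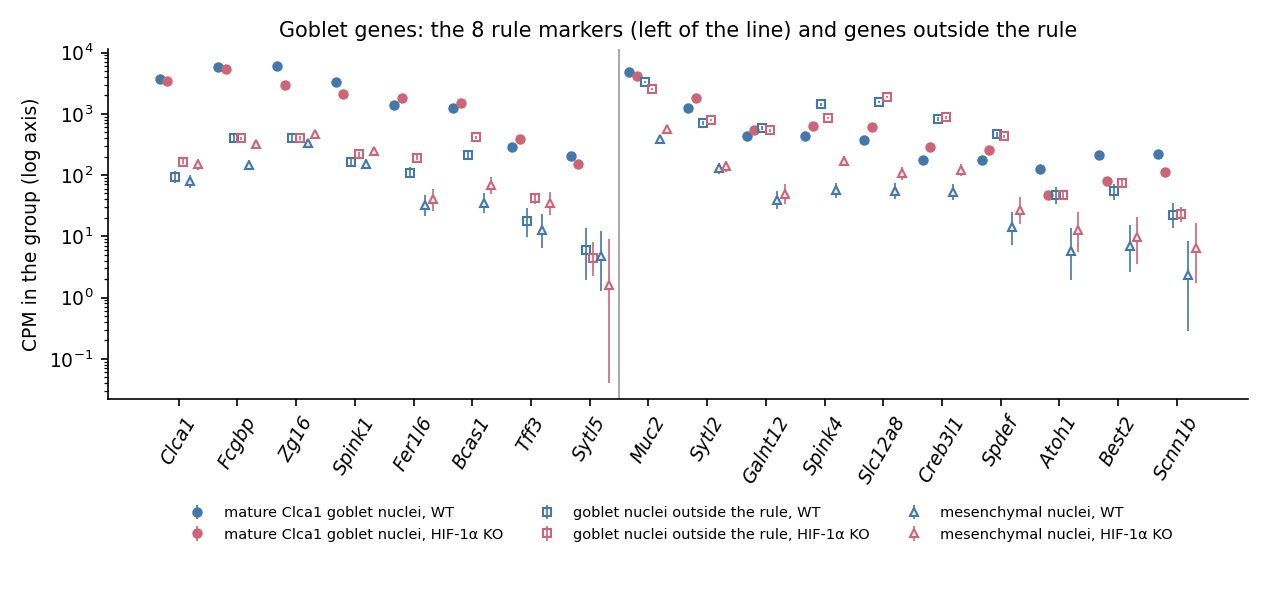
CPM (y axis, log scale) of the 8 rule markers and of 10 goblet genes outside the rule in mature Clca1 goblet nuclei (filled circles), goblet nuclei outside the rule (open squares) and mesenchymal nuclei (triangles) of each library; bars are exact 95% Poisson intervals. Muc2 differs by 0.56 and 0.70 on the log2 scale between the kinds of goblet nuclei, whereas Spink4 and Slc12a8 are highest in the goblet nuclei outside the rule, which were themselves chosen with Creb3l1, Spdef, Atoh1, Galnt12 and Sytl2.

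In all, 84 of 12575 genes were at least 4-fold higher in mature Clca1 goblet nuclei than in all other nuclei of the same library, in both libraries (0.668%). All 8 markers of the rule were among them, which the rule fixed. Ordered by the lower of the libraries' ratios, the first 2 of the 20 leading genes outside the rule encode subunits of the epithelial sodium channel ENaC. Scnn1b (chromosome 7, bases 121865038 to 121918514) stood at 223 CPM in WT and at 114 in the HIF-1α KO mature Clca1 goblet nuclei, against 10.2 and 6.19 in other nuclei. Its neighbour Scnn1g (bases 121734479 to 121768475) stood at 121 and 41.2, against 5.85 and 2.26. The alpha subunit Scnn1a was not set apart in this way, with log2 differences from the other nuclei of 1.02 and 0.37.

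Several further leading genes serve granule transport and release. Rab27a, a small GTPase that docks secretory granules, stood at 533 and 517 CPM, with log2 differences from other nuclei of 3.37 in WT and 3.12 in HIF-1α KO nuclei. For its binding partner Sytl2 the levels were 1241 and 1791 and the log2 differences 3.04 and 3.08. Rab3b stood at 24.7 and 38.1, and Scin, which severs actin filaments, at 814 and 617. Capn9, a calpain of the digestive tract, stood at 161 and 178 CPM, and the bombesin receptor gene Grpr at 48.6 and 67.3. Ido1, the enzyme that opens the indole ring of tryptophan, stood at 78.6 and 132 against 4.12 and 10.5 in other nuclei. Ido1 UMIs came from few nuclei, 31 of 335 in WT and 68 of 639 in HIF-1α KO nuclei, and a single HIF-1α KO nucleus gave 21.8% of them there. Mesenchymal nuclei held an Ido1 UMI in 1.97% and 4.90%. Ddx60, an antiviral helicase of the interferon response, stood at 584 and 819, and the tenth of nuclei with the most Ddx60 held 71.6% and 86.9% of its UMIs. The sulfotransferase paralogs Gal3st2, Gal3st2b and Gal3st2c all belonged to the leading genes, but reads of such close copies may be split between them and their single values are uncertain. The same holds for Bcas1os2, which overlaps Bcas1 on the other strand. The other leading genes were Tgm5, Etnppl, Sval1, Gm50215, Gm12511 and 2010001K21Rik.

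For comparison, 310 WT and 531 HIF-1α KO nuclei outside the rule met a goblet rule built on Atoh1, Spdef, Creb3l1, Ern2, St6galnac1, Galnt12, Sytl2 and Hepacam2, with medians of 2332 and 3983 UMIs. Their Muc2 levels were 3279 and 2542 CPM, and the log2 difference of mature Clca1 goblet nuclei from them was 0.56 in WT and 0.70 in HIF-1α KO nuclei. Since the 8 markers of either rule chose the nuclei, only genes in neither rule are compared here. Spink4, a secreted goblet peptide, stood at 437 and 633 CPM in mature Clca1 goblet nuclei, below the 1418 and 860 in the goblet nuclei outside the rule. Slc12a8 was also lower, with 378 and 605 against 1556 and 1886. Reg4 was at 28.3 and 23.0, with log2 differences from the goblet nuclei outside the rule of -2.56 and -2.89. Klf4, a factor of terminal epithelial differentiation, went the other way, with 421 and 321 CPM against 101 and 152. Of the ENaC genes, Scnn1g was 3.53 and 3.22 and Scnn1b 22.4 and 22.9 in the goblet nuclei outside the rule. Ido1 was at 1.18 and 7.24 there, and Ddx60 at 29.4 and 35.8.

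Gene lists for the steps of mucus production were described next. In the list for granule transport and exocytosis, 9 of 33 genes with enough UMIs were at least 4-fold higher than in other nuclei in both libraries, against 0.668% of all genes. Among them were Rab27a, Rab27b, Rab3b, Sytl2 and Rep15, and the rule markers Bcas1, Fer1l6 and Sytl5, whose count the rule fixed. Rab27b stood at 701 and 773 CPM, with log2 differences from other nuclei of 2.76 and 2.65. The summed level of the list, which contains Bcas1, Fer1l6 and Sytl5, was 9910 and 11647 CPM, against 3169 and 4086 in other nuclei. The part of these rule markers in the difference came with the choice of nuclei, and no sum without them was made. Genes of protein folding and stress in the endoplasmic reticulum (ER) were higher by less, but nearly all of them: 30 of 35 were above the other nuclei in both libraries, none was below in both, and none reached 4-fold. Of all 12575 genes, 22.5% were above the other nuclei in both libraries and 55.1% below. The list median of the log2 difference was 0.53 in WT and 0.57 in HIF-1α KO nuclei, whereas that over all genes was -0.24 and -0.22. The ER list was not higher than in the goblet nuclei outside the rule, which were chosen with Ern2 among others. It summed to 4279 and 4466 CPM in nuclei of the rule, against 4805 and 4469 in those. Agr2, a disulfide isomerase needed for mucin assembly, stood at 507 and 660 CPM, Ern2, a goblet ER stress sensor, at 158 and 270, and Herpud1, of ER-associated degradation, at 153 and 129.

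Of the glycosylation list, 24 of 37 genes were above the other nuclei in both libraries, beside the 22.5% of all genes, and 3 reached 4-fold. The list summed to 16401 and 19412 CPM, below the 20077 and 24016 of the goblet nuclei outside the rule. Those nuclei were chosen with St6galnac1 and Galnt12 among others. Gcnt3, which branches O-glycans, stood at 118 and 62.4 CPM, with log2 differences from other nuclei of 3.95 in WT and 2.79 in HIF-1α KO nuclei. The sialyltransferase gene St6gal1 stood at 455 and 478, with log2 differences of 2.64 and 2.62. Galnt7 and C1galt1, early enzymes of O-glycan synthesis, stood at 1955 and 2000 and at 560 and 657 CPM. St6galnac1 and Chst5 were at 0 UMIs in these nuclei in both libraries. Among mucus proteins, the gastric genes Muc5ac, Tff1 and Tff2 were likewise at 0 UMIs, and Muc6 had 1 and 2 UMIs. Of 26 genes for channels and transporters, 11 were above the other nuclei in both libraries and 15 below, beside 22.5% and 55.1% of all genes. Of these 26, 3 were at least 4-fold higher than in other nuclei, Ano7, Best2 and Atp2c2. Atp2c2, a calcium pump of the secretory pathway, stood at 215 and 306 CPM. The 4-fold counts of this paragraph stand beside 0.668% of all genes. Il13ra1, a chain of the receptor for interleukin 13, which drives goblet differentiation, stood at 431 and 546 CPM and was the 1 of 24 genes of the sensing list at 4-fold in both libraries.

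Marker lists of other cell types were below the level of the other nuclei. All 10 cycling markers, all 10 enteroendocrine markers and all 8 mesenchymal markers were lower in both libraries, as were 55.1% of all genes. The summed mesenchymal level was 353 and 243 CPM, against 9766 and 12907 in mesenchymal nuclei. Summed immune markers stood at 366 and 320, against 640 and 551 in other nuclei, and absorptive markers at 1694 and 1917, against 2489 and 3638. The absorptive sum was lower in goblet nuclei outside the rule, at 773 and 1010, and in mesenchymal nuclei, at 840 and 1050. Of the 10 absorptive markers, 2 were above the other nuclei in both libraries and 8 below, beside 22.5% and 55.1% of all genes. Of 8 genes listed for goblet cells of the surface epithelium, Ido1 and Mxd1 were above the other nuclei in both libraries and 6 were below, a split to be read beside the same 22.5% and 55.1% of all genes. Among these, Dmbt1 had log2 differences of -1.25 and -1.20, and the gasdermin genes Gsdmc2, Gsdmc3 and Gsdmc4 had differences between -1.89 and -1.02.

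Nuclei of the rule varied among themselves. They were split in each library into tertiles, 3 nearly equal groups, by their marker share, which ranged from 2.02% to 18.7% in the highest WT tertile and from 1.56% to 18.0% in the highest HIF-1α KO tertile. Median UMIs in the lowest and highest tertile were 1850.5 and 3149 in WT and 2446 and 5523 in HIF-1α KO nuclei. Muc2 went along with the markers, from 2972 CPM in the lowest tertile to 4039 and 6797 in the WT, and from 2662 to 3576 and 5455 in HIF-1α KO nuclei. Rab27a did so more steeply, from 245 to 557 and 704 and from 215 to 431 and 764. The summed exocytosis list, which contains rule markers that set the order of the tertiles, went from 6577 to 12029 in WT and from 7339 to 14888 in HIF-1α KO nuclei. Scnn1b went from 78.4 to 354 and from 52.4 to 146, and Scnn1g from 30.7 to 207 and from 12.1 to 64.5.

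The summed list that chose the goblet nuclei outside the rule also went up along the tertiles, from 2331 to 3821 CPM in WT and from 2937 to 4815 in HIF-1α KO nuclei, as did the summed goblet genes outside the rule, from 9634 to 15399 and from 9951 to 15672. Single genes among them had the opposite order. Creb3l1, an ER-bound transcription factor that helped choose those nuclei, went from 228 to 115 CPM from the lowest to the highest WT tertile and from 394 to 206 in HIF-1α KO nuclei. Slc12a8 went from 562 to 180 and from 793 to 431. Spink4 went from 627 to 318 in WT nuclei but was 625 and 669 in HIF-1α KO nuclei, with a log2 ratio of 0.10 (-0.06 to 0.26). Cycling markers summed to 480 and 152 in the lowest and highest WT tertile and to 263 and 103 in the HIF-1α KO tertiles. Summed mesenchymal and immune markers were also lower in the highest tertiles, at 246 and 322 in WT and 132 and 150 in HIF-1α KO nuclei, against 525 and 549 and 486 and 630 in the lowest tertiles. Glycosylation genes had no such order, with 15447, 17605 and 15926 from lowest to highest in WT and 19044, 20233 and 18877 in HIF-1α KO nuclei.

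**Figure D3:**
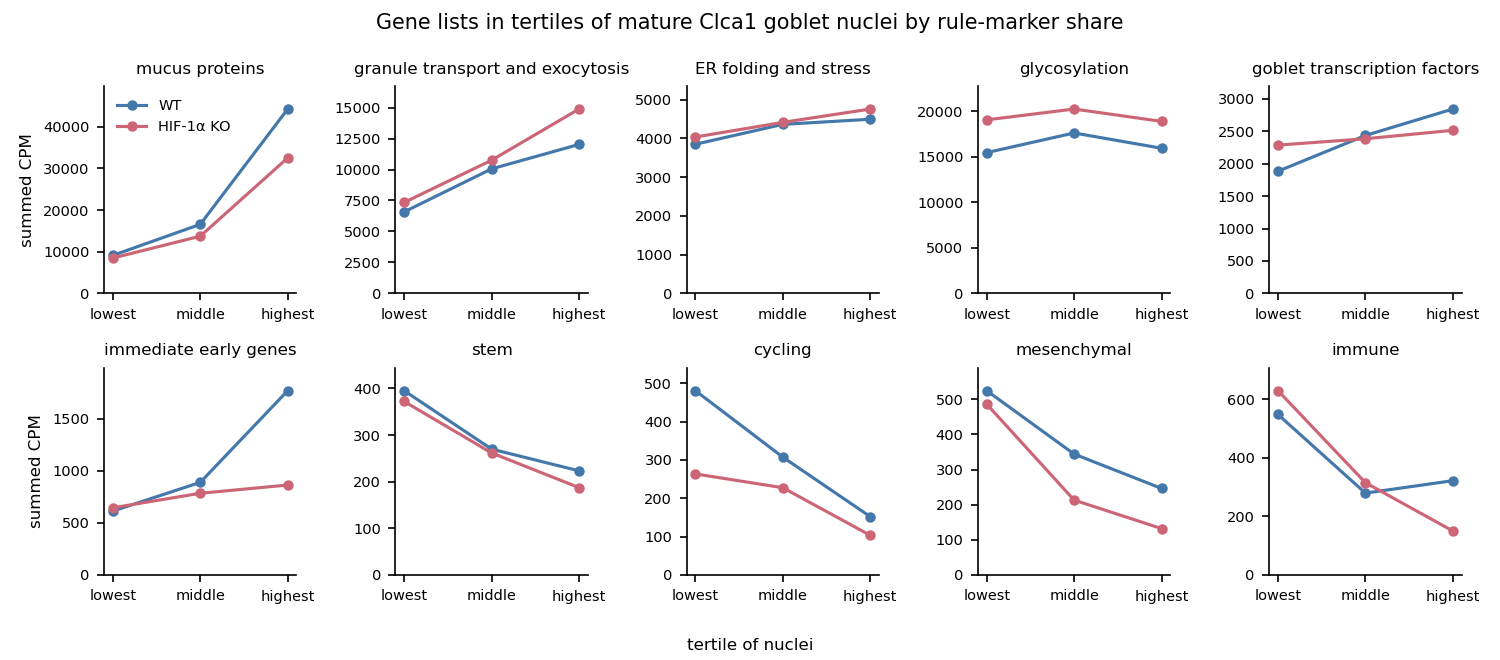
Summed CPM (y axis, from 0) of 10 gene lists in tertiles of mature Clca1 goblet nuclei ordered by rule-marker share within each library (x axis; 111 or 112 WT and 213 HIF-1α KO nuclei per tertile). The mucus and exocytosis lists contain rule markers; cycling, stem and mesenchymal lists decline in both libraries, and immediate early genes reach 1770 in the highest WT tertile and 863 in the highest HIF-1α KO tertile.

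UMIs of Zg16 and Spink1 were concentrated in few nuclei. The tenth of nuclei with the most UMIs held 67.8% of Zg16 UMIs in WT and 63.3% in HIF-1α KO nuclei, and 64.5% and 63.4% of Spink1 UMIs. For Fer1l6 these shares were 35.6% and 42.3%, and for Muc2 39.9% and 32.1%. The nuclei with the highest joint share of Zg16 and Spink1, 34 WT and 64 HIF-1α KO nuclei chosen after these values were seen, had Muc2 at 11098 and 7789 CPM, against 3841 and 3634 in the rest. Bcas1 had the opposite order, with 1034 and 968 against 1288 and 1544.

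The libraries were then compared within the mature Clca1 goblet nuclei, over 1131695 WT and 3254421 HIF-1α KO UMIs. Of 5954 genes with at least 100 UMIs, 124 were at least 2-fold higher (2.08%) and 102 at least 2-fold lower (1.71%) in HIF-1α KO nuclei. The balance depended on the scaling, with 96 higher and 132 lower after scaling to the median ratio over genes, a shift of 0.06 on the log2 scale, 95 and 135 with TMM factors, and 161 and 62 with every nucleus weighted equally. It depended on the minimum as well, with 1150 higher and 1968 lower when any gene with a UMI in both libraries was counted. Much of the difference was not particular to the nuclei of the rule. Of the 124 genes, 122 were also higher and 61 at least 2-fold higher in all other nuclei. Of the 102 genes, 97 were also lower and 35 at least 2-fold lower there. The median log2 ratio in other nuclei was 0.97 for the 124 genes and -0.81 for the 102, against 0.10 over all tested genes. The shares of all tested genes higher or lower there are not given. These other nuclei included 310 WT and 531 HIF-1α KO goblet nuclei outside the rule. Fewer than 20 UMIs in 1 of the libraries lay behind 53 of the 124 higher genes. No test across animals can be made, and a ratio past 2-fold describes these 2 libraries.

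**Figure D4:**
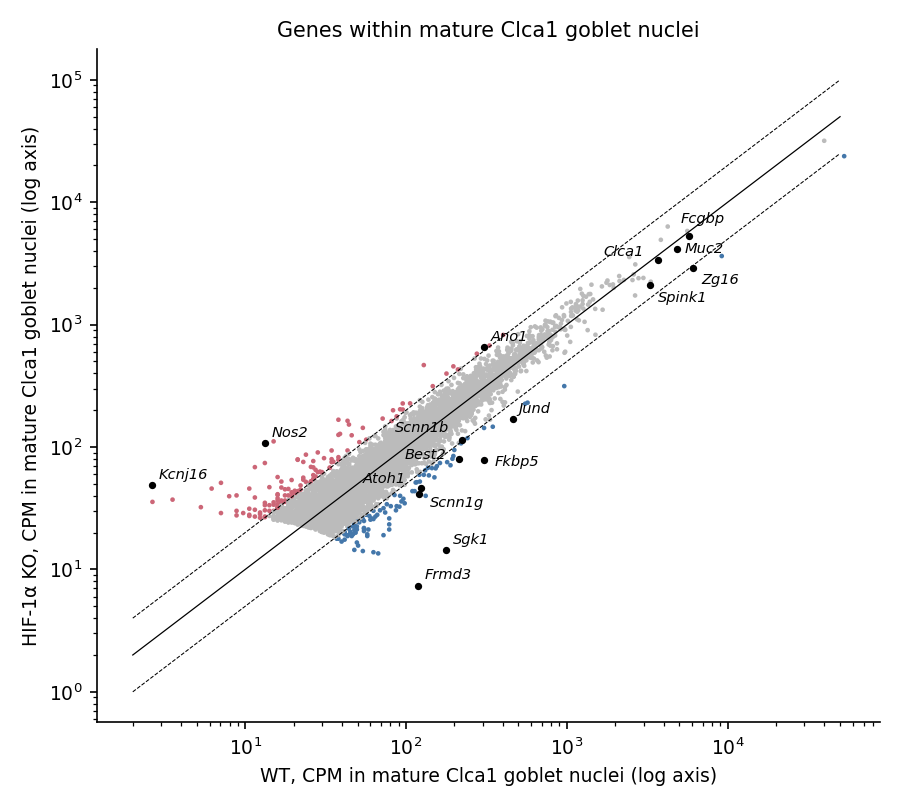
CPM of the tested genes in mature Clca1 goblet nuclei of the WT (x axis) and the HIF-1α KO library (y axis), both on log scales; the solid line marks equal levels and dashed lines 2-fold differences. Genes past 2-fold are coloured, and Sgk1, Frmd3, Nos2 and Kcnj16 lie farthest from the line among the labelled genes.

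Most mucus genes differed little. Muc2, at 4821 and 4128 CPM, had a log2 ratio of HIF-1α KO over WT of -0.22 (-0.27 to -0.18), against 0.14 in other nuclei. With the level of mesenchymal nuclei subtracted in each library it was -0.32. Clca1 and Fcgbp had ratios of -0.13 and -0.12. Zg16 was the 1 of 8 rule markers past 2-fold, with 6074 in WT and 2919 in HIF-1α KO nuclei and a log2 ratio of -1.06 (-1.10 to -1.01), against -0.04 in other nuclei. In the tertile with the highest marker share the Zg16 ratio was -1.23. It was -1.45 without nuclei that also met the rule of another class, -0.89 with every nucleus weighted equally and -0.88 with nuclei thinned to 1000 UMIs. A single nucleus gave 12.2% of WT and 10.9% of HIF-1α KO Zg16 UMIs, and for Spink1 a single nucleus gave 14.3% and 10.6%. The counting intervals do not cover such spread between nuclei. Spink1, at 3289 and 2113, had a ratio of -0.64 (-0.70 to -0.58), and of -1.12, past 2-fold, without nuclei that also met the rule of another class. Fer1l6, Tff3 and Bcas1 had ratios of 0.35, 0.41 and 0.24. Without those nuclei, Tff3 had a ratio of -0.0011. Because these 8 genes chose the nuclei, their ratios are given as a description. None of the 10 tested mucus genes was past 2-fold higher, and Zg16 was the 1 gene of that list past 2-fold lower.

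Of 16 tested goblet genes outside the rule, none was past 2-fold higher and 2 were past 2-fold lower, beside 2.08% and 1.71% of all tested genes, with a list median of 0.31 beside 0.06 over all tested genes. Atoh1 (chromosome 6, bases 64729125 to 64731245), the factor that sets secretory fate, stood at 124 CPM in WT and at 46.7 in the HIF-1α KO nuclei, a log2 ratio of -1.41 (-1.75 to -1.06), which was -0.86 with nuclei thinned to 1000 UMIs. In other nuclei its ratio was 0.21, and in the goblet nuclei outside the rule, which were chosen with it among others, its level was 47.1 and 46.7. Of the nuclei of the rule, 79 WT (23.6%) and 112 HIF-1α KO ones (17.5%) held an Atoh1 UMI, against 1.64% and 4.90% of mesenchymal nuclei. Best2 (chromosome 8, bases 85007202 to 85014531), a bestrophin anion channel of colonic goblet cells, stood at 212 and 79.9, also a ratio of -1.41 (-1.67 to -1.15), against 0.19 in other nuclei. In goblet nuclei outside the rule it stood at 54.2 and 74.8. The order along the tertiles differed as well: Best2 went from 102 to 313 in WT nuclei and was 71.2 and 76.6 in the lowest and highest HIF-1α KO tertiles. Atoh1 went from 51.1 to 203 in WT and from 34.9 to 67.5 in HIF-1α KO nuclei.

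Of the 16 tested goblet genes outside the rule, 10 had a ratio above 0, all short of 2-fold. Others were lower, among them Rep15 with a log2 ratio of -0.64. Spdef, which acts after ATOH1 in goblet maturation, stood at 173 and 252 CPM, a log2 ratio of 0.54 (0.31 to 0.77). Ern2 had a ratio of 0.77 (0.54 to 1.01), Spink4 of 0.53, Slc12a8 of 0.68, Creb3l1 of 0.70 and Sytl2 of 0.53. In other nuclei these genes had ratios of 0.39 for Spdef, 0.93 for Ern2, 0.36 for Spink4, 0.59 for Slc12a8, 0.41 for Creb3l1 and 0.50 for Sytl2. Of 14 tested transcription factors of the goblet and colon epithelium, Atoh1 and Foxa2 were past 2-fold lower and none past 2-fold higher. Of all tested genes, 1.71% were past 2-fold lower and 2.08% higher. Foxa2 stood at 72.5 and 31.6, a ratio of -1.19, with -0.90 in other nuclei and -0.97 without nuclei that also met the rule of another class. Foxa3 and Klf4 had ratios of 0.33 and -0.39.

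Of the ENaC genes, those for the beta and gamma subunits were lower in HIF-1α KO nuclei. Scnn1g, at 121 and 41.2 CPM, had a log2 ratio of -1.56 (-1.91 to -1.20), and Scnn1b, at 223 and 114, of -0.97 (-1.20 to -0.73). In other nuclei their ratios were -1.37 and -0.72. Scnn1a, at 62.7 and 74.4, had a ratio of 0.25. Sgk1, a kinase that raises ENaC activity, stood at 178 and 14.4 CPM, from 202 and 47 UMIs, a ratio of -3.63 (-4.12 to -3.16), or -2.91 when thinned, against -1.72 in other nuclei. Fkbp5, a chaperone of steroid receptors, stood at 306 and 78.4, a ratio of -1.96 (-2.20 to -1.73) against -0.79. Nuclei of the rule with a Fkbp5 UMI made up 50.4% (WT) and 25.2% (HIF-1α KO), and those with a Sgk1 UMI 27.2% and 5.79%. Mesenchymal nuclei held a Fkbp5 UMI in 30.2% and 25.2% and a Sgk1 UMI in 7.87% and 2.80%, so that Fkbp5 in the HIF-1α KO nuclei, at 78.4 CPM, was not above the 100.5 CPM of mesenchymal nuclei. Both were also lower in goblet nuclei outside the rule, with 219 and 93.4 for Fkbp5 and 31.8 and 8.05 for Sgk1.

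Frmd3, a protein that links the membrane to the cytoskeleton, had the lowest ratio of all tested genes. Its 135 WT and 24 HIF-1α KO UMIs gave 119 and 7.37 CPM, a log2 ratio of -4.02 (-4.71 to -3.38) against -1.43 in other nuclei. In WT it was found in 53 nuclei, and it went from 34.1 to 207 CPM across the tertiles. Others of the 10 lowest ratios were Chrm3 at -2.31, Stox2 at -2.18, Sgcd and Gm49980 at -1.93, Plxdc2 at -1.89, Gadd45a at -1.75 and Nrg1 at -1.73. Chrm3 is the muscarinic acetylcholine receptor through which nerves trigger mucus release. It stood at 67.2 and 13.5 CPM in the nuclei of the rule, but at 290 and 487 in mesenchymal nuclei. Sgcd and Nrg1 were also far higher in mesenchymal nuclei, at 657 and 522 and at 2657 and 1940, than in the nuclei of the rule, at 53.9 and 14.1 and at 133 and 39.9. The part of free RNA in these low levels was not tested. Stox2 and Plxdc2 were not past 2-fold under 2 of the alternatives, with -0.86 and -0.95 when every nucleus was weighted equally and -0.59 and -0.75 with nuclei thinned to 1000 UMIs, and 1 WT nucleus held 33.8% of the WT Stox2 UMIs. Thinned, Chrm3 had a ratio of -1.62 and Sgcd of -1.23.

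**Figure D5:**
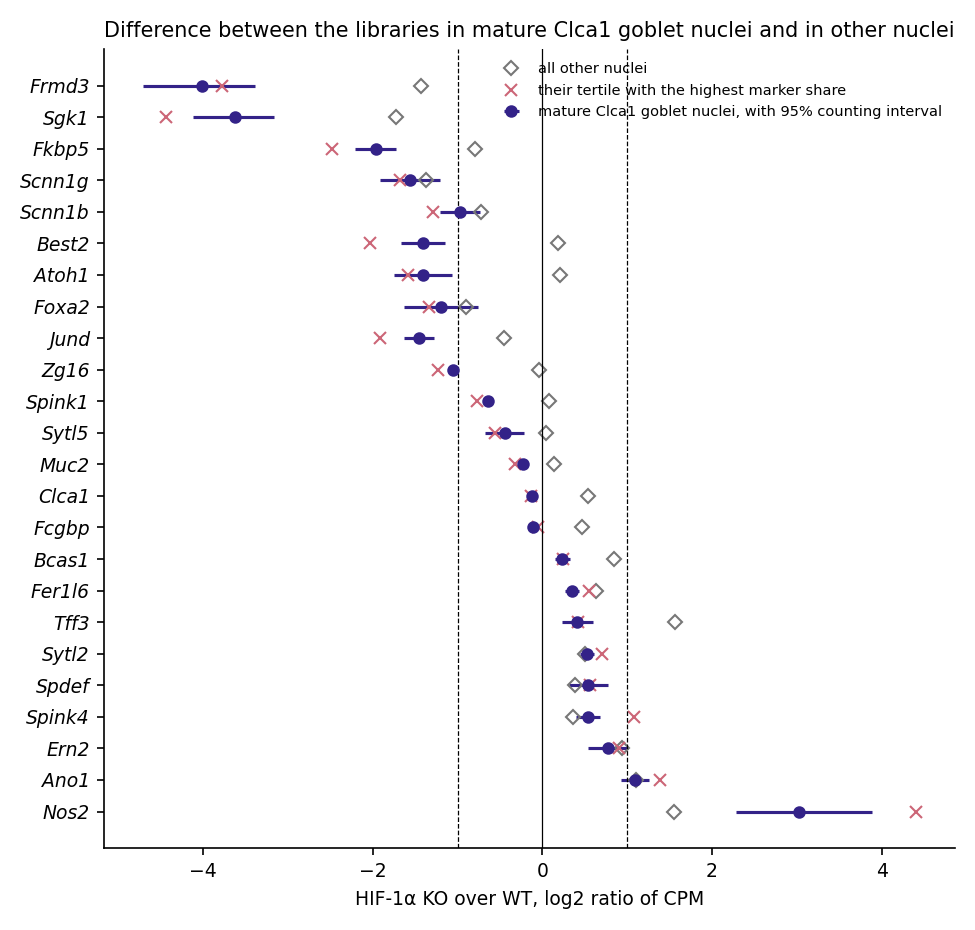
Log2 ratio of HIF-1α KO over WT (x axis) for 24 genes in mature Clca1 goblet nuclei (filled circles with 95% counting intervals), in the tertile of them with the highest marker share (crosses) and in all other nuclei (open diamonds); dashed lines mark 2-fold. Best2, Atoh1 and Zg16 lie left of -1 in the nuclei of the rule and near 0 in other nuclei, whereas Scnn1g at -1.56 and -1.37 and Ano1 at 1.09 and 1.10 have similar ratios in both.

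Among the 10 highest ratios, 3 are protein-coding genes with a known product, Nos2, Kcnj16 and Nek10. Nos2, the inducible nitric oxide synthase, had 15 UMIs in WT and 352 in HIF-1α KO nuclei, 13.3 and 108 CPM, a log2 ratio of 3.03 (2.29 to 3.88) against 1.56 in other nuclei. These UMIs lay in 11 WT nuclei (3.28%) and 85 HIF-1α KO nuclei (13.3%), and 1 nucleus gave 13.6% of the HIF-1α KO UMIs. Mesenchymal nuclei held a Nos2 UMI in 1.31% and 5.59%. Without nuclei that also met the rule of another class the Nos2 ratio was 2.56, and with nuclei thinned to 1000 UMIs it was 4.22. Kcnj16, an inward rectifier potassium channel, had 3 and 158 UMIs, a ratio of 4.19 (2.62 to 6.49), but of 2.75 with every nucleus weighted equally and 2.73 with nuclei thinned to 1000 UMIs. Its HIF-1α KO UMIs lay in 38 nuclei, 5.95%, and 17.7% of them in 1 nucleus. Nek10, a kinase, stood at 11.5 and 68.5, a ratio of 2.58 against 0.58 in other nuclei, and of 1.64 when thinned. The other 7 were the long noncoding or unnamed transcripts Gm12146, Gm15478, 2610318M16Rik, Far1os, Gm36975, Gm16599 and Gm35188, with ratios from 2.48 to 3.75. Their ratios rest on few WT UMIs, from 3 for Gm12146 to 17 for 2610318M16Rik, against 105 to 362 HIF-1α KO UMIs. The counting interval was 2.00 to 5.29 for Gm15478 and 1.84 to 4.09 for Gm36975. In other nuclei these 7 had ratios from 2.17 to 3.06.

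Counts past 2-fold in the lists on defence, sensing and oxygen stand beside the 2.08% of all tested genes that were higher and the 1.71% that were lower. Of 10 tested antimicrobial and inflammatory genes, Nos2 was the 1 past 2-fold higher, and none was past 2-fold lower. Lypd8, which keeps flagellated bacteria off the epithelium, stood at 1253 and 1581 CPM, a log2 ratio of 0.34, and Saa1 at 517 and 416, a ratio of -0.31. Duox2, a hydrogen peroxide source, had a ratio of 0.49. Of 13 tested sensing genes, Chrm3 was the 1 past 2-fold. Il13ra1 had a ratio of 0.34 and Egfr of 0.43. Of 20 tested genes of hypoxia and glycolysis, Egln3, a prolyl hydroxylase that is itself induced by HIF, was the 1 past 2-fold, with 25.6 and 52.5 CPM and a ratio of 1.04 that was 0.62 without nuclei that also met the rule of another class. The list median was 0.31, and that in other nuclei 0.45. In the ion transport list, with 24 tested genes, Ano1, a calcium-activated chloride channel, stood at 307 and 652, a ratio of 1.09, and Car4, a carbonic anhydrase of absorptive cells, at 81.3 and 163, a ratio of 1.01 that was 0.54 without those nuclei. Slc12a2 and Cftr, both of chloride secretion, each had a ratio of -0.72.

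The counts of the next lists stand beside 2.08% of all tested genes past 2-fold higher and 1.71% lower, and their medians beside 0.06. Among lists for the secretory pathway, the 31 tested ER genes had a median log2 ratio of -0.02 and the 25 tested exocytosis genes one of 0.20. In each, 1 gene was past 2-fold. These were Hyou1 at -1.15, or -1.76 when thinned to 1000 UMIs, and Marcks at -1.19, or -0.57 with every nucleus weighted equally. Of 32 tested glycosylation genes, Galnt4 was past 2-fold lower, with 62.7 and 25.8 CPM and a ratio of -1.28, or -0.82 when thinned. Gcnt3 had a ratio of -0.91 (in other nuclei 0.25) and Galnt1 of -0.86. Immediate early genes were uneven. Jund stood at 459 and 168, a ratio of -1.45, and Fos at 137 and 67.6, a ratio of -1.02, whereas Jun stood at 16.8 and 46.7, a ratio of 1.48, and Atf3 at 23.9 and 51.9, a ratio of 1.12. In WT, the nucleus with the most Fos UMIs gave 20.6% of them, and that with the most Atf3 UMIs gave 55.6% of those. The ratio of Fos was -0.63 with every nucleus weighted equally, that of Jun 0.86 with nuclei thinned to 1000 UMIs, and that of Atf3 2.06 without nuclei that also met the rule of another class. Jund went from 147 to 723 across the WT tertiles and from 141 to 191 across the HIF-1α KO tertiles.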

How the data were processed

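Single-nucleus libraries of frozen colon were made with a 10x 3′ kit and aligned to mm10 with Cell Ranger 7.0.1 by the authors, who deposited raw UMI counts per gene and barcode for 1 WT and 1 HIF-1α KO library, each from 3 pooled animals. From these counts, barcodes with 400 to 5000 genes and at most 10% mitochondrial UMIs were kept. UMIs of the nuclei in a group were summed per library and given as CPM, UMIs per 1000000. Genes with at least 100 UMIs in the goblet nuclei of both libraries together were compared, with 2-fold as the call; genes with at least 100 UMIs over all nuclei were compared between nuclei, with 4-fold. Intervals are exact Poisson, exact conditional or Clopper-Pearson 95% intervals. Other classes needed 4 markers of their list and 0.4% of UMIs, goblet nuclei outside the rule 3 of 8 markers and 0.2%. Thinning to 1000 UMIs used seed 1. The comparison was checked on simulated data. With 1 library per genotype no model was fitted and no p-value is given; edgeR 4.0.16 gave TMM factors only. Named were the 8 markers, list genes with at least 20 UMIs, the 10 highest and 10 lowest ratios and the 20 leading genes; Gm42418 and AY036118 and the nuclei rich in Zg16 and Spink1 were singled out after their values were seen. The members and lists were chosen with earlier results of these data known. Positions are from GENCODE on GRCm38. Python 3.11.15, numpy 2.4.6 and scipy 1.17.1 were used.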

Additional observations from a re-analysis of the deposited data

How the results depend on the processing

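Under all 18 alternatives the HIF-1α KO library had the larger share of mature Clca1 goblet nuclei. The log2 ratio left the counting interval of the reported value in 1 of them, a marker share of at least 0.2%, with 1.31. The count of 226 genes past 2-fold within these nuclei was 48 with nuclei thinned to 1000 UMIs, 3118 with no minimum on UMIs (1150 higher and 1968 lower), 104 with at least 200 UMIs, and 136 with only genes above mesenchymal nuclei in both libraries, where fewer or more genes enter by construction. Calls split into 161 higher and 62 lower with every nucleus weighted equally, into 95 and 135 with TMM scaling, and into 87 and 49 for genes above mesenchymal nuclei. Similar totals did not mean the same genes. Of the 226 genes, 143 kept their call with every nucleus weighted equally and 197 with TMM scaling. With nuclei thinned to 1000 UMIs, where 2203 genes were tested, 28 kept it. The log2 ratio of Muc2 was -0.28 with median-of-ratios scaling and -0.32 with the mesenchymal level subtracted. Of 35 named genes past 2-fold that were examined, which did not include Ano1, 24 stayed past it in all 7 alternatives that recompute the ratio of a gene. Those that did not were Atoh1, Car4, Egln3, Fos, Foxa2, Galnt4, Jun, Marcks, Plxdc2, Stox2 and Zg16, and none changed sign. Atoh1 reached -0.86 and Zg16 -0.88 at the least; the cause was not tested. The count of 84 genes 4-fold above other nuclei stayed within 62 and 123. The marker share of at least 0.8% as applied to genes (for the share of nuclei it was not a later choice), the mesenchymal share added to the threshold and the restriction to genes above mesenchymal nuclei were chosen after seeing the data. No paired analysis was possible because each genotype has 1 library. Depth limits genes with few UMIs: with 3 UMIs in a library the ratio has an interval over several log2 units, and animals cannot be told apart within a pool.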
